A study of Mus musculus with 2 samples.

Results

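The genes of 8 growth factors that macrophages are known to make were read in single macrophages of the mouse sciatic nerve (SN): *Igf1*, *Tgfb1*, *Pdgfb*, *Pdgfc*, *Vegfa*, *Osm*, *Hbegf* and *Gas6*. They are 8 of the 54838 genes in the deposited count matrices, and they were chosen by name, with earlier results of these data known. CD64+ CD45int macrophages were sorted from the SNs of 19 pooled male Flt3-Cre LSL-YFP fl/fl mice aged 10 to 12 weeks. In this model Cre is driven by *Flt3*, so YFP marks cells that have passed through an *Flt3*-expressing blood progenitor, and YFP+ macrophages are read as hematopoietic and YFP− macrophages as embryonic in origin, as far as the labelling is complete. Both sorted fractions come from the same Flt3-Cre LSL-YFP fl/fl mice and were run as separate 10x Chromium v2 libraries, 1 library per fraction. With 1 library of pooled mice per fraction there is no replicate, and no test of a difference between YFP− and YFP+ macrophages was possible.

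Cells were taken as barcodes with at least 500 UMIs (unique molecular identifiers, each standing for 1 captured RNA molecule) and at least 200 genes, which gave 1045 YFP− and 4053 YFP+ cells. The median depth was 2233 UMIs for YFP− and 1484 UMIs for YFP+ cells, and the cells held 2418044 and 6747554 UMIs in all, so that levels of YFP+ macrophages have the narrower intervals. Only 7 cell barcodes occurred in both libraries. The macrophage markers *Csf1r*, *Fcgr1*, *Cx3cr1*, *Adgre1*, *C1qa*, *C1qb*, *Mrc1*, *Cd68* and *Ptprc* were all present, with a summed level of 15027 and 15257 CPM (counts per 1000000 UMIs, over the summed cells). Markers of other cells of the nerve were also read: the Schwann cell list summed to 704 CPM in YFP− and 647 CPM in YFP+ macrophages, the mural cell list to 9.10 and 119 CPM (with *Myh11* and *Des* at 0 in YFP−), and the fibroblast list to 23.6 and 94.6 CPM. All intervals in parentheses are exact 95% intervals (Poisson for levels, Clopper-Pearson for shares and log2 ratios), and they describe counting error alone, so that variation from mouse to mouse or from sort to sort is not in them.

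Growth factors from macrophages act on neighbouring cells of a tissue. GAS6 binds the receptors AXL, MERTK and TYRO3, through which phagocytes recognise dying cells and myelin debris. TGF-β1 is secreted in a latent form and is a signal for macrophages themselves and for fibroblasts, IGF-1 supports the growth and survival of neurons and glia, and PDGFs act on fibroblasts and mural cells. VEGF-A drives the growth of vessels, oncostatin M is a cytokine of the IL-6 family, and HB-EGF is a ligand of the EGF receptor. After nerve injury such factors are known to take part in debris clearance and repair, but the mice here were not injured.

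On the GRCm38 genome, in GENCODE M21, *Gas6* lies on the minus strand at chr8:13465374-13494490, *Tgfb1* on the plus strand at chr7:25687002-25705077 and *Igf1* on the plus strand at chr10:87858265-87937042. *Pdgfb* lies at chr15:79995874-80014977 and *Vegfa* at chr17:46016993-46032369 on the minus strand, and *Pdgfc* at chr3:81036416-81214040 and *Osm* at chr11:4236420-4241026 on the plus strand. Genes on the other strand overlap *Igf1* (the antisense RNA gene *Igf1os*), *Pdgfb* (*Gm41361*), *Pdgfc* (*Gm16000*) and *Gas6* (*Tmem255b*), and *Mir7213* lies within *Pdgfb* on its own strand.

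The windows of 250 bases before the start of *Gas6*, *Tgfb1* and *Pdgfc* are shown, since *Gas6* and *Pdgfc*, like *Igf1*, were highest in the same group of cells and *Tgfb1* varied least over clusters among the 3 most abundant members. They are RefSeq sequences of GRCm38.p6, written 5′ to 3′ on the strand of the gene, from chr8:13494536-13494785 (minus strand), chr7:25686752-25687001 (plus strand) and chr3:81036166-81036415 (plus strand). The *Gas6* start of that table lies 45 bases before the nearest GENCODE start. The capitals mark GC boxes, GGGCGG on either strand.
Gas6: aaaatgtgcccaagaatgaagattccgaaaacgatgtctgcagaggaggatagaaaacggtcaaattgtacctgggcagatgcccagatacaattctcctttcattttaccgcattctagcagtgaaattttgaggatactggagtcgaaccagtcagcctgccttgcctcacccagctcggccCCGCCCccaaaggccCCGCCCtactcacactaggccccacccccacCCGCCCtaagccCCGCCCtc
Tgfb1: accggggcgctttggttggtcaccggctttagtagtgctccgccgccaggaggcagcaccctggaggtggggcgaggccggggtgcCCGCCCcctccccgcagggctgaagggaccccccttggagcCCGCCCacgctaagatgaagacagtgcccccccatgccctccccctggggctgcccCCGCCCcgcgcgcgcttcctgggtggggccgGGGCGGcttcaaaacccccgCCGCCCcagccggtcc
Pdgfc: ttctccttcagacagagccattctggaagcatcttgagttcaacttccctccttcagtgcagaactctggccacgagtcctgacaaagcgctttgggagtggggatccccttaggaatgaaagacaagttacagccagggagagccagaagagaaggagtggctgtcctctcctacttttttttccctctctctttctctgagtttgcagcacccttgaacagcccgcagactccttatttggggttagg
The *Gas6* window holds 4 GC boxes and the *Tgfb1* window 5, while 32.7% of 32851 promoters hold at least 1 in the same window, and the *Pdgfc* window holds none. Neither TGANTCA nor ACGTG, the core of a hypoxia response element, occurs in these windows, and 6.75% and 16.6% of the promoters hold them. TGANTCA is a loose form of the AP-1 site that allows any base (N) at its centre. The *Igf1* window of the same table overlaps an annotated *Igf1* exon, so only the 27 bases around its single TGANTCA match are given, from chr10:87861064-87861090 on the plus strand, with the match in capitals.
Igf1: agctggaactTGAATCActattctgga
The match, with an A at its centre, begins 37 bases before the RefSeq start site. That start lies 2846 bases inside the gene and 218 bases from the nearest GENCODE start. The windows of *Vegfa* hold 2 and 1 GC boxes, with 1 ACGTG match in the second. All matches are descriptions of letters, not of binding.

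The 8 genes fell into a group that was read often and a group that was hardly read at all. *Gas6* had 565 CPM (535–596) in YFP− and 416 CPM (401–432) in YFP+ macrophages, and was the 254th gene by mean level. *Tgfb1* had 178 CPM (162–196) and 143 CPM (134–152), and *Igf1* 136 CPM (122–152) and 94.8 CPM (87.6–102). The order *Gas6*, *Tgfb1*, *Igf1* was the same in both libraries, without overlap of the intervals. A UMI counts the captured end of a transcript and not its length, so these levels were not divided by gene length, but capture can differ between genes.

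*Pdgfb*, for the B chain of PDGF, was far lower, with 17.8 CPM (12.9–24.0) in YFP− and 24.0 CPM (20.5–28) in YFP+ macrophages. *Osm* had 7.03 CPM (4.10–11.3) from 17 UMIs and 4.74 CPM (3.24–6.69) from 32 UMIs. *Pdgfc* had 18 UMIs in each library, or 7.44 CPM (4.41–11.8) and 2.67 CPM (1.58–4.22). The intervals of *Osm* and *Pdgfc* overlap in both libraries, so their order is not resolved. *Hbegf* had 5 UMIs in YFP− and 22 UMIs in YFP+ macrophages, 2.07 CPM (0.67–4.83) and 3.26 CPM (2.04–4.94). *Vegfa* was read as 1 UMI and 4 UMIs in all, 0.41 CPM (0.010–2.30) and 0.59 CPM (0.16–1.52), while 3 UMIs would be 1.24 and 0.445 CPM. *Vegfa* was thus at or near the limit of detection in both libraries. All its UMIs were in cluster 8, described below, whose cells carry markers of other cells of the nerve.

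**Figure D1:**
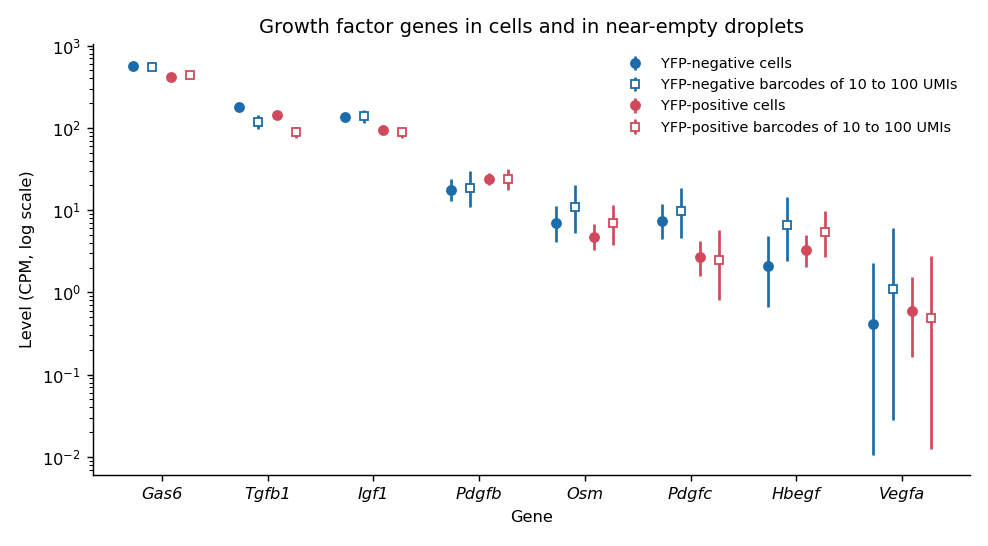
Level of each gene in CPM (log scale) in cells (filled circles) and in barcodes with 10 to 100 UMIs (open squares) of the YFP− and YFP+ libraries, with exact Poisson 95% intervals. *Gas6*, *Tgfb1* and *Igf1* lie near or above 100 CPM and the other 5 genes at or below 24.1 CPM, and only *Tgfb1* lies clearly above the near-empty droplets in both libraries.

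The 3 most abundant of the 8 genes were all lower in YFP+ macrophages, by less than 1.5-fold. The log2 ratio of YFP+ over YFP− was −0.44 (−0.53 to −0.35) for *Gas6*, −0.31 (−0.48 to −0.15) for *Tgfb1* and −0.52 (−0.71 to −0.32) for *Igf1*. *Pdgfb* had a log2 ratio of 0.41 (−0.06 to 0.90), which includes 0. Of the 8 genes, these 4 reached a mean level of 20 CPM. None of the 4 was at least 1.5-fold higher and none at least 1.5-fold lower in YFP+ macrophages, while among all 5531 genes of that level 1.54% were higher and 5.77% lower. The log2 ratio was below that of *Igf1* in 6.73% of those genes, below that of *Gas6* in 8.10% and below that of *Tgfb1* in 12.7%, and the median over all of them was −0.0024.

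Among the 4 rarer genes, *Pdgfc* had a log2 ratio of −1.20 (−1.99 to −0.37), from 18 UMIs in each library. It was the only member with a ratio beyond 1.5-fold, but its mean of 5.06 CPM lay below the 20 CPM required above. At a mean of at least 5 CPM, 9.44% of 10065 genes were at least 1.5-fold lower in YFP+ macrophages. With every cell thinned to 500 UMIs the *Pdgfc* ratio was −0.12, but only 2 YFP− and 7 YFP+ cells then kept a UMI of it. In cells low for immediate-early and heat-shock genes the *Pdgfc* ratio was −0.36. With at least 1000 UMIs per cell it was −1.16, and with cells weighted equally −1.30. *Osm* had −0.48 (−1.25 to 0.31), *Hbegf* 0.47 (−0.59 to 1.48) and *Vegfa* 0.17 (−1.04 to 0.78), and none of these 3 differences was detectable at this depth. Over all 8 genes the median was −0.38. The ratio of *Igf1* varied with the setting. In cells low for immediate-early and heat-shock genes, which respond to dissociation of the tissue, it was −0.21. Thinning every cell to 500 UMIs, which keeps the cells but drops most UMIs, gave −0.24. The *Igf1* ratio was −0.57 with at least 1000 UMIs per cell and −0.41 with cells weighted equally. These alternative values were computed without intervals.

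Free RNA in the suspension puts UMIs into every droplet, so the levels were set beside those of barcodes with 10 to 100 UMIs, of which there were 56346 in the YFP− and 85373 in the YFP+ library. *Tgfb1* was higher in cells than in these droplets. Its droplet level was 118 CPM (96.4–142) in the YFP− library and 88.0 CPM (75.6–102) in the YFP+ library, and it was 1.51-fold and 1.62-fold higher in cells, with log2 ratios of 0.60 (0.29 to 0.91) and 0.70 (0.47 to 0.93). Of all genes of at least 20 CPM, 11.6% in the YFP− and 9.73% in the YFP+ library were at least 1.5-fold higher in cells. *Gas6*, at 555 CPM (508–606) and 442 CPM (414–472) in the droplets, had log2 ratios of 0.03 (−0.12 to 0.17) and −0.09 (−0.20 to 0.02). *Igf1*, at 139 CPM (115–165) and 88.0 CPM (75.6–102), had −0.03 (−0.32 to 0.28) and 0.11 (−0.13 to 0.35). The droplet levels of *Gas6*, *Igf1* and *Tgfb1* were thus also lower in the YFP+ library, as in its cells, with overlapping intervals for *Tgfb1*. The part of free RNA in the ratios between libraries was not tested.

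*Pdgfb* also had nearly the same level in cells and droplets, with log2 ratios of −0.068 (−0.87 to 0.78) and −0.0045 (−0.46 to 0.47). None of the 4 genes was at least 1.5-fold lower in cells, where 15.1% and 9.55% of all genes were. The intervals of the other 4 genes all included 0, with 1 to 14 UMIs in the droplets. The droplets themselves held mainly macrophage RNA: the macrophage list summed to 16775 and 15810 CPM there, and the Schwann cell list to 3296 and 5273 CPM, above its level in cells. A gene of macrophages is therefore not set apart from free RNA by this ratio, and a level equal to that of the droplets does not show that a macrophage lacks it.

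Shares of cells with a UMI were compared after each cell had been thinned to 500 UMIs. A *Gas6* UMI was seen in 23.7% (21.2–26.4) of YFP− macrophages and 18.4% (17.2–19.6) of the YFP+ ones, where 500 UMIs drawn from the droplets would give 24.2% and 19.8%. *Tgfb1* was found in 9.38% (7.68–11.3) and 7.13% (6.36–7.97), against 5.71% and 4.30% from the droplets, and *Igf1* in 5.65% (4.33–7.22) and 5.03% (4.38–5.75), against 6.69% and 4.30%. Without thinning the shares were 61.4% and 43.6% for *Gas6*, 31.4% and 20.2% for *Tgfb1*, and 21.9% and 12.8% for *Igf1*. *Pdgfb* was found in 0.67% and 1.46% of thinned cells, and *Pdgfc*, *Osm*, *Hbegf* and *Vegfa* in at most 0.38%. In cluster 8 (described next), whose cells carry markers of Schwann, mural and fibroblast cells and had a median of 1028.5 UMIs, the thinned shares were 14.2% (8.14–22.3) for *Gas6* and 1.89% (0.23–6.65) for both *Igf1* and *Tgfb1*.

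Most cells showed none or only 1 of the 8 growth factors. At 1000 UMIs per cell, which left out 150 YFP− and 1184 YFP+ cells, 42.0% (38.8–45.3) of YFP− and 53.3% (51.4–55.1) of YFP+ macrophages had no UMI of any member, and 44.9% and 37.6% had a UMI of 1. A UMI of 2 members was found in 11.8% and 8.05%, of 3 members in 1.23% and 1.01%, and of 4 members in 1 YFP+ cell. In YFP+ macrophages *Igf1* and *Gas6* were found together in 98 cells where 71.8 would be met if they were unrelated, a ratio of 1.37 (1.11–1.66), and *Igf1* and *Tgfb1* in 44 cells against 30.1, a ratio of 1.46 (1.06–1.96). In YFP− macrophages these ratios were 0.96 (0.70–1.29) and 1.11 (0.67–1.73). *Tgfb1* and *Gas6* were found together as often as unrelated genes, with ratios of 1.05 (0.80–1.35) and 1.02 (0.85–1.21).

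To see which macrophages carried the factors, the cells of both libraries were clustered without the 8 genes and without the other growth factor genes listed below, which gave 12 clusters. They are called by number and leading genes. Over both libraries *Igf1* and *Gas6* were highest in cluster 11, of 50 YFP− and 86 YFP+ cells led by *Cd209f*, *Cd209g*, *Fcna*, *Retnla* and *Ccl8*. *Cd209f*, *Cd209d*, *Fcna* and *Retnla* among its 10 leading genes are from the list of 9 markers of macrophages of the epineurium, the sheath around the nerve, and the list summed to 18952 CPM there against 1595 CPM in all other cells. *Retnla* alone had 13419 of these 18952 CPM, against 647 CPM in all other cells, and it is also a leading gene of cluster 6, which is led by *S100a4*. Cluster 11 had little of the MHC class II genes, 22696 CPM against 50505 CPM.

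In cluster 11 *Igf1* stood at 342 CPM for YFP− and 345 CPM for YFP+ cells, against 129 and 90.1 CPM in all other cells. Over both libraries the log2 ratio to all other cells was 1.77 (1.40 to 2.12), and it was 1.40 (0.77 to 1.96) in YFP− and 1.93 (1.45 to 2.37) in YFP+ macrophages alone. After thinning, 20.6% (14.1–28.4) of its cells had an *Igf1* UMI, against 1.35% to 9.26% of the cells of the other clusters. The next highest was cluster 5, of 324 cells led by *Ednrb*, *Ccl8*, *Ccl24*, *Folr2* and *Cd38*, at 160 CPM (133–192), followed by the interferon-led cluster 9 at 137 CPM (98.7–185) and cluster 1, led by *Fosb*, *Jun* and *Fos*, at 131 CPM (118–147), which do not differ beyond their intervals. In YFP− cells alone cluster 5, at 123 CPM, stood below cluster 10 (263 CPM from 18 cells), cluster 9 (194 CPM) and cluster 1 (167 CPM), with overlap of its interval with those of all 3. *Igf1* was lowest in cluster 12, of 74 cells led by the cell cycle genes *Top2a*, *Hist1h2ae*, *Hist1h2ap*, *Birc5* and *Pclaf*, at 16.8 CPM (4.57–42.9), and in cluster 2, led by the chemokine and cytokine genes *Ccl4* and *Il1b*, at 30.7 CPM (16.8–51.6).

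*Gas6* spread over the clusters with another low end. It had 781 CPM (665–913) in cluster 11, 727 CPM (644–818) in cluster 3, which was led by mitochondrial genes and had a median of only 893 UMIs, and 601 CPM (546–659) in cluster 5. The log2 ratio of cluster 11 to all other cells was 0.80 (0.56 to 1.03). In YFP− cells alone cluster 3, at 837 CPM, stood above cluster 11, at 784 CPM, with overlapping intervals. The lowest level was 132 CPM (101–170) in cluster 2, with a log2 ratio of −1.83 (−2.22 to −1.47), and this low level was found in YFP− (77.7 CPM) and in YFP+ macrophages (141 CPM). Cluster 12 at 264 CPM (203–338) and cluster 6, led by *S100a4*, *S100a6* and *Ccr2*, at 282 CPM (251–315) were also low. After thinning, 5.80% (3.03–9.91) of the cells of cluster 2 had a *Gas6* UMI and 34.6% (26.6–43.2) of those of cluster 11. At 1 fixed depth the shares of cells with *Igf1* and with *Gas6* thus differed between clusters beyond counting error, although both genes were at the level of the near-empty droplets over all cells.

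*Tgfb1* was the most even of the 3 genes. It ranged from 92.8 CPM (51.9–153) in cluster 8 to 194 CPM (153–244) in cluster 3, and the log2 ratio of cluster 3 to all other cells was 0.37 (0.01 to 0.70). In each library alone the interval included 0, with 0.13 (−0.43 to 0.65) in YFP− and 0.46 (−0.02 to 0.90) in YFP+ cells. The highest cluster of each gene was picked by these same counts, which its interval does not allow for. Cluster 7, led by *Fhl3*, *Cxcl13* and *Slc39a1*, was the other low one at 114 CPM (94.7–136). This low level was that of its 921 YFP+ cells, at 104 CPM (84.7–126), while its 57 YFP− cells had 195 CPM (124–293). Clusters 2 and 12, in which *Igf1* was lowest, had 132 and 176 CPM of *Tgfb1*.

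**Figure D2:**
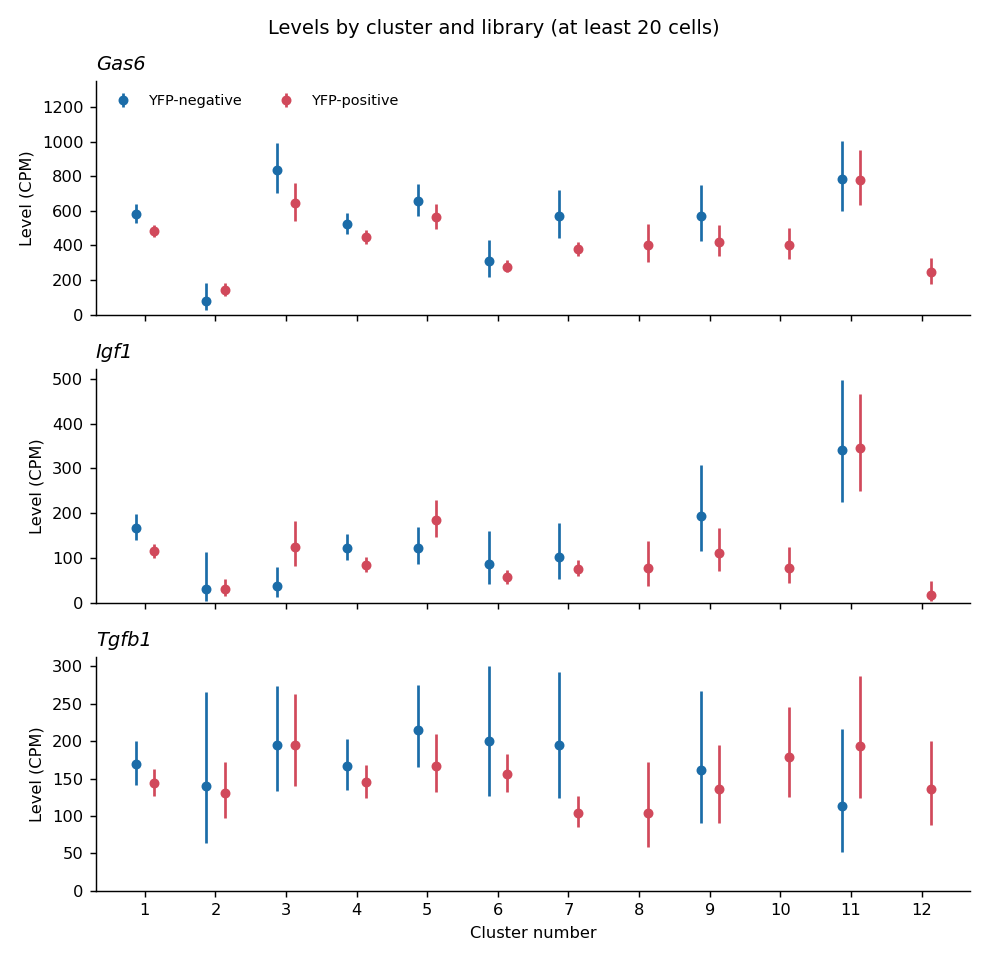
Level in CPM of *Gas6*, *Igf1* and *Tgfb1* in each cluster of at least 20 cells, for the YFP− and YFP+ libraries apart, with exact Poisson 95% intervals. In cluster 11 *Igf1* stands at 342 and 345 CPM and *Gas6* at 784 and 779 CPM, in cluster 2 *Gas6* is lowest, and *Tgfb1* shows no such peak.

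The rarer factors were found in few cells, which could be counted 1 by 1. *Pdgfc*, whose product becomes active after cleavage, was highest in cluster 11 too: 3 of its 18 UMIs in YFP− and 7 of 18 in YFP+ macrophages were there, or 49.1 CPM (23.6–90.4) against 2.90 CPM in all other cells, a log2 ratio of 3.68 (2.55 to 4.66). Of its other UMIs, 5 were in cluster 8, at 30.9 CPM (10.0–72.2), and this interval overlaps that of cluster 11. In YFP− cells cluster 8 stood above cluster 11, at 112 CPM from 2 UMIs against 38.0 CPM from 3 UMIs. In YFP+ cells it stood below, at 20.9 against 56.2 CPM, so the highest cluster of *Pdgfc* is not resolved. *Pdgfb* was highest in cluster 7 at 34.0 CPM (23.9–46.8), with a log2 ratio of 0.68 (0.15 to 1.19), but in YFP− macrophages only 2 UMIs were in that cluster and the ratio was −0.067 (−2.67 to 1.81). Cluster 7 had a median of only 917.5 UMIs, and the part of depth in this level was not tested. *Osm* stayed at or below 11.2 CPM in all clusters, from at most 19 UMIs, and its highest cluster, led by *Cxcl2* and *Atf3*, did not differ from the rest beyond counting error.

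All 5 UMIs of *Vegfa* were in cluster 8, of 106 cells with *Acta2*, *Tagln*, *Igfbp7* and *Myl9* among its leading genes. The Schwann cell list summed to 19441 CPM and the mural cell list to 4670 CPM there. The 5 cells had 0 to 5 UMIs of the whole macrophage list. Of these cells, 3 had 17, 57 and 124 UMIs of the mural list, and 1 had 205 UMIs of the fibroblast list. The YFP− cell among them had 1 UMI each of the macrophage, Schwann and mural lists, and also held 2 UMIs of *Hbegf* and 1 of *Pdgfc*. In the 4 other clusterings tried, 4 or 5 of the 5 UMIs were in a cluster with *Acta2*, *Tagln*, *Igfbp7* and *Myl9* among its 5 leading genes.

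*Hbegf* (chr18:36504927-36515805, minus strand) was read mainly in 3 clusters, with 8 UMIs in the large cluster 1 and higher levels in 2 small ones. In cluster 8 it had 6 UMIs, 37.1 CPM (13.6–80.8), in cells with 1 or 2 UMIs of the macrophage list. In cluster 10, of 111 cells led by *Cxcl2*, *Atf3*, *Nfkbia*, *Dnajb1* and *Nr4a1*, it had 8 UMIs, 29.8 CPM (12.9–58.8), in cells with 16 to 68 UMIs of the macrophage list and 65 to 255 UMIs of the immediate-early and heat-shock list. Over all YFP+ cells *Hbegf* had 8.24 CPM in cells high and 0.99 CPM in cells low for that list, 17 and 3 UMIs, a log2 ratio of 2.21 (1.0 to 3.10). Cluster 8 was not left out of these classes. Its YFP+ cells with an *Hbegf* UMI had up to 200 UMIs of the Schwann cell list and up to 76 of the immediate-early and heat-shock list. In YFP− cells *Hbegf* had 2 UMIs in each class, and the part of dissociation in the *Hbegf* signal was not tested.

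Across all cells of a library, *Igf1* was lower where MHC class II was high. Cells were split into a low, a middle and a high class by their UMIs of *H2-Aa*, *H2-Ab1*, *H2-Eb1* and *Cd74* after thinning. The classes are ranges of a score and not cell types, and 86 YFP− and 275 YFP+ cells lay at the boundary of the high class. Cells at the boundary of the low class were not counted. *Igf1* had 94.0 CPM in the high and 179 CPM in the low class of YFP− macrophages, and 57.0 and 130 CPM in YFP+ macrophages. The log2 ratios were −0.92 (−1.35 to −0.50) and −1.17 (−1.48 to −0.87), and 3.55% and 1.08% of genes had a lower one. Without clusters 5, 8 and 11, an alternative chosen after seeing the data, they were −0.71 (−1.18 to −0.26) and −1.05 (−1.38 to −0.72), so the difference was also found among the remaining macrophages. A median UMI count of 2255.5 in the high and 2129.5 in the low class of YFP− cells, and of 1724 and 1209 in YFP+ cells, went with these classes. Not every group followed this direction: the cycling cluster 12 had 25104 CPM of MHC class II, against 50550 CPM in all other cells, and the lowest *Igf1*, 16.8 CPM.

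*Gas6* showed the same direction with a smaller size. It had 542 CPM in the high and 642 CPM in the low class for MHC class II of YFP− macrophages, and 342 and 492 CPM in YFP+ macrophages, with log2 ratios of −0.24 (−0.43 to −0.05) and −0.53 (−0.66 to −0.39). Without clusters 5, 8 and 11 these were −0.23 (−0.44 to −0.03) and −0.49 (−0.64 to −0.35). With all clusters kept, a lower ratio was found in 37.2% of genes in the YFP− and 11.2% in the YFP+ library, so the YFP− value of *Gas6* lay among those of many genes. *Tgfb1* did not differ detectably, with log2 ratios of 0.16 (−0.17 to 0.50) and 0.086 (−0.14 to 0.31). *Pdgfc* had 2 UMIs in the high and 14 in the low class of YFP+ macrophages, a log2 ratio of −2.02 (−2.92 to −0.62), which without clusters 5, 8 and 11 was −0.77 (−1.92 to 0.84). MHC class II itself summed to 40672 CPM in YFP− and 53189 CPM in YFP+ macrophages, in which *Igf1* and *Gas6* were lower, and the part of this difference in the library ratios was not tested.

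Cells high for the epineurial list had more *Igf1* and more *Gas6*. The low class had 0 UMIs of the list after thinning and the high class more than 1. At the boundary of the high class lay 925 YFP− and 3711 YFP+ cells, so few UMIs part the classes. *Retnla* made up 618 of the 1953 CPM of that list in YFP− and 1043 of 1991 CPM in YFP+ macrophages, so the classes rest in good part on this 1 gene. *Igf1* had 181 CPM against 114 CPM in YFP− and 128 against 80.9 CPM in YFP+ macrophages, log2 ratios of 0.66 (0.25 to 1.06) and 0.65 (0.36 to 0.94). *Gas6* had 678 against 503 CPM and 460 against 379 CPM, log2 ratios of 0.43 (0.22 to 0.63) and 0.28 (0.13 to 0.42). In the YFP− and YFP+ libraries 92.5% and 98.4% of genes had a lower ratio than *Igf1*. For *Gas6* these shares were 83.1% and 86.7%, so many genes rose more than *Gas6* did. *Pdgfb* went the other way in YFP+ macrophages, 12.9 against 26.3 CPM, a log2 ratio of −0.98 (−1.81 to −0.21), and in YFP− macrophages the ratio was −0.48 (−1.89 to 0.76). Cells high for the monocyte-like list (*Ccr2*, *S100a4*, *S100a6*, *Crip1*, *Ly6c2* and *Plac8*) had less *Igf1* and less *Gas6* in YFP+ macrophages, with log2 ratios of −0.48 (−0.80 to −0.16) and −0.38 (−0.53 to −0.22). In YFP− macrophages the ratios were −0.35 (−0.76 to 0.060) for *Igf1* and −0.15 (−0.35 to 0.039) for *Gas6*, and both intervals include 0. *Tgfb1* had log2 ratios of 0.43 (0.096 to 0.76) in YFP− and 0.15 (−0.11 to 0.40) in YFP+ macrophages for this list. *Crip1* made up 1754 of the 2083 CPM of the monocyte-like list in YFP− and 2207 of 2999 CPM in YFP+ macrophages, while *Ly6c2* and *Plac8* had at most 0.41 CPM. The list summed to 6507 CPM in cluster 8 and 5998 CPM in cluster 6, so its high class can take in cells with markers of other cell types. At the boundary of that high class lay 909 YFP− and 2101 YFP+ cells.

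**Figure D3:**
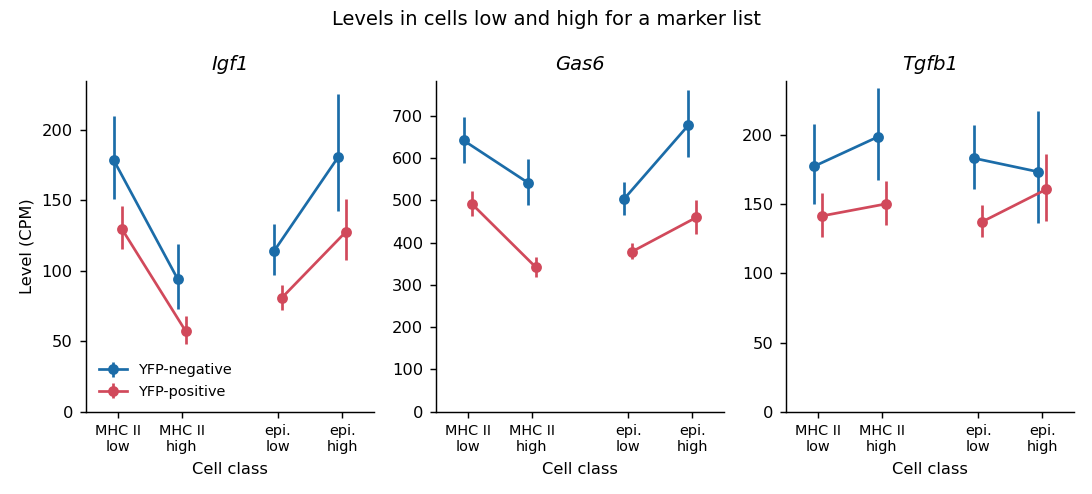
Level in CPM of *Igf1*, *Gas6* and *Tgfb1* in cells low and high for MHC class II genes and for the epineurial list (epi.), in the YFP− and YFP+ libraries, with exact Poisson 95% intervals. *Igf1* goes from 179 to 94.0 CPM in YFP− and from 130 to 57.0 CPM in YFP+ cells between the low and the high class for MHC class II, and *Tgfb1* stays between 137 and 199 CPM in all classes.

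A link of *Igf1* to the immediate-early and heat-shock list was found in 1 library. In YFP− macrophages *Igf1* had 159 CPM in cells high and 111 CPM in cells low for the list, a log2 ratio of 0.52 (0.15 to 0.88), and in YFP+ macrophages 91.6 and 95.7 CPM, a ratio of −0.06 (−0.33 to 0.20). The difference between the libraries in this link was not tested. *Gas6* and *Tgfb1* had ratios between −0.15 and 0.02 in both libraries, with intervals that include 0.

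The lower *Gas6* of YFP+ macrophages was also seen within clusters. Of 9 clusters with at least 20 cells of each library, *Gas6* was lower in YFP+ cells in 8, with 4 intervals below 0, and log2 ratios ran from −0.58 in cluster 7 to 0.85 in cluster 2. In cluster 11 its levels were 784 and 779 CPM in the YFP− and YFP+ libraries, a ratio of −0.0096 (−0.48 to 0.47). *Tgfb1* was lower in 7 of the 9 clusters, with 1 interval below 0. The 9 clusters are parts of the same 2 libraries and share their free RNA, so they are not replicates of the difference.

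*Igf1* did not follow 1 direction. It was lower in YFP+ cells of 6 clusters, among them cluster 1 with 167 and 115 CPM, a log2 ratio of −0.53 (−0.86 to −0.21), and cluster 4, led by *Hist1h1c* and *Hist1h1e*, with 122 and 83.9 CPM, a ratio of −0.54 (−0.99 to −0.08). In cluster 5 it was higher in YFP+ cells, 185 against 123 CPM, a ratio of 0.59 (0.01 to 1.19), and in cluster 3 it had 125 against 36.4 CPM, a ratio of 1.75 (0.47 to 3.26) from 27 and 6 UMIs. With both libraries set to the same makeup of clusters, which was added after seeing the data, the ratio over all cells was −0.27 for *Gas6*, −0.33 for *Igf1* and −0.30 for *Tgfb1*. In cells with at least 3 UMIs of other cell types, 124 YFP− and 288 YFP+ cells, *Gas6* had 654 against 549 CPM in the YFP− and 396 against 418 CPM in the YFP+ library, and without those cells the ratio between libraries was −0.39.

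**Figure D4:**
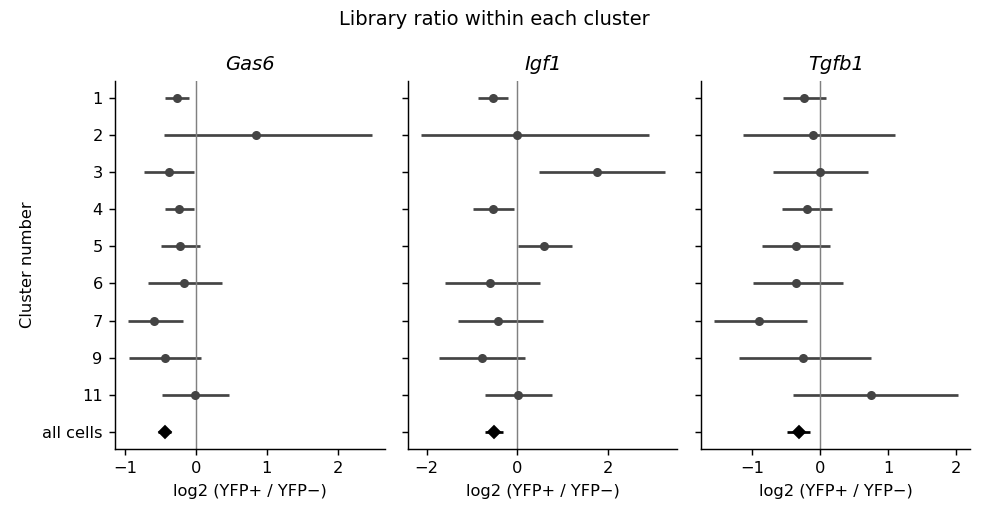
Log2 ratio of YFP+ over YFP− for *Gas6*, *Igf1* and *Tgfb1* in each of 9 clusters (circles) and over all cells (diamonds), with 95% intervals for counting error. *Gas6* lies below 0 in 8 clusters with cluster 2 at 0.85, while *Igf1* lies on both sides, from −0.79 in cluster 9 to 1.75 in cluster 3.

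Levels also varied with how deeply a cell was read. *Gas6* went from 651 CPM (511–817) in YFP− cells of 500 to under 1000 UMIs to 503 CPM (431–584) in those of 4000 or more, and from 483 CPM (438–531) to 296 CPM (244–356) in YFP+ cells. *Igf1* was lowest in the deepest YFP+ cells, at 51.9 CPM (31.7–80.2), against 85.7 to 110 CPM in the shallower classes. In YFP− cells it had 96.7 CPM (48.3–173) in the shallowest class, 129 and 149 CPM in the next ones and 102 CPM (70.9–142) in the deepest. In the shallowest class *Igf1* was thus lower in YFP− than in YFP+ cells, at 110 CPM (89.0–134), with overlapping intervals. In the deeper classes it was higher in YFP− cells. *Tgfb1* stayed between 136 and 150 CPM in YFP+ cells of all 4 classes, and in YFP− cells it had 255 CPM (171–366) in the shallowest class and 171 to 192 CPM in the others.

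The genes whose levels over the clusters were most like those of a member were found by Pearson correlation over 21 profiles (clusters of at least 20 cells in each library, which share 2 libraries and their free RNA). Each match is the top of a search over all other genes of at least 50 CPM, which its r does not allow for. *Igf1* was most like *Ninj1* (0.89), *Ccl6* (0.86) and *Mtss1* (0.84), and *Gas6* like *Cbr2* (0.93), *Folr2* (0.91) and *Wwp1* (0.91). *Tgfb1* had weaker matches, *Cd63*, *Clec4a3* and *C1qc* (all 0.66), and *Pdgfb* was most like *Fcer1g* (0.77), *March1* (0.72) and *P2ry6* (0.71). *Vegfa* was most like *Pmp22* (0.97), a gene of Schwann cells, and *Sparc* (0.95), a gene of matrix, but among the 21 profiles its UMIs, 4 in all, were in 1, that of cluster 8 in YFP+ cells, which alone sets these values. *Hbegf* was most like *Junb* (0.76), *Mt1* (0.76) and *Dnajb9* (0.75), *Pdgfc* like *Ndufs6* (0.82), *Fgfr1* (0.79) and *Uqcr10* (0.79), and *Osm* like *Thap3* (0.71), *Pdia6* (0.70) and *Rtn3* (0.67), all from few UMIs of the member. Among the members, *Igf1* and *Gas6* had an r of 0.70 and *Igf1* and *Pdgfc* of 0.58.

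The 8 genes stood among a wider list of 49 growth factor ligands, of which 48 had an entry under the listed symbol. Of these, 7 reached 20 CPM, and 16 had fewer than 3 UMIs in both libraries. None of the 7 was past 1.5-fold in either direction, where 1.54% of all genes of that level were higher and 5.77% lower in YFP+ macrophages. Beside the members, *Grn*, for progranulin, had 530 and 475 CPM in YFP− and YFP+ macrophages, below *Gas6* in the former and above it in the latter. In the near-empty droplets *Grn* had 646 and 522 CPM. The second ligand of the GAS6 receptors, *Pros1*, had 57.5 and 56.9 CPM, a log2 ratio of −0.01, and *Bmp2* had 32.3 and 32.2 CPM. No cell of either library had a UMI of *Igf2*, *Lif*, *Ereg*, *Nrg1*, *Bdnf*, *Gdnf*, *Artn* or *Ntf3*, where 3 UMIs would be 1.24 CPM in YFP− and 0.445 CPM in YFP+ macrophages. *Tgfb2* and *Tgfb3*, the relatives of *Tgfb1*, were at or below 2.37 CPM.

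Receptors for several of these factors were also read in the cells. Of 24 receptors, 12 reached 20 CPM, 1 of them was higher in YFP+ macrophages and none was lower, where 1.54% of all genes were higher and 5.77% lower, with a median log2 ratio of −0.09. *Axl* had 132 and 140 CPM and *Mertk* 69.9 and 66.2 CPM, without a UMI of *Tyro3* in the cells of either library. *Tgfbr2* had 121 and 99 CPM, and *Tgfbr1*, the other subunit of the TGF-β receptor, 60.0 CPM (50.6–70.6) in YFP− and 92.5 CPM (85.4–100.03) in YFP+ macrophages, a log2 ratio of 0.62 (0.36 to 0.88). *Tgfb1* and *Tgfbr1* thus had ratios of opposite sign. *Lifr* had 378 and 404 CPM, *Nrp1*, a coreceptor of VEGF, 190 and 152 CPM, *Igf1r* 39.7 and 29.5 CPM and *Egfr* 24.0 and 22.4 CPM, while *Osmr* had 0 and 2 UMIs. The receptors of PDGF and VEGF (*Pdgfra*, *Pdgfrb*, *Kdr*, *Flt1* and *Flt4*) had at most 12 UMIs in a library. In the near-empty droplets *Egfr* had 31.9 and 29.0 CPM, above its level in cells, *Axl* 125 and 118 CPM and *Tgfbr2* 118 and 112 CPM. *Mertk*, at 49.5 and 41.8 CPM, and *Nrp1*, at 112 and 93.4 CPM, were lower there than in cells.

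Among 23 binding proteins, proteases and activators, 9 reached 20 CPM, with 1 higher and 1 lower in YFP+ macrophages and a median of −0.09. The shares over all genes of that level were 1.54% higher and 5.77% lower. *Igfbp4*, which binds IGF-1, had 366 and 245 CPM, a log2 ratio of −0.58 (−0.70 to −0.46), just within 1.5-fold and close to that of *Igf1*. *Nrros*, which anchors latent TGF-β1 on macrophages, had 174 and 146 CPM, and *Cd9* 140 and 182 CPM. In the near-empty droplets *Nrros* had 165 and 158 CPM and *Cd9* 228 and 477 CPM. *Igfbp7* had 7.03 and 38.8 CPM, a ratio of 2.31 (1.67 to 2.99), and *Igfbp5* 30.6 and 12.6 CPM, a ratio of −1.22 (−1.66 to −0.77). Both rested on cluster 8, since without its cells *Igfbp7* had 2.92 and 2.73 CPM and *Igfbp5* 1.67 and 1.97 CPM.

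Of 16 signalling genes and targets, 10 reached 20 CPM, 1 was higher in YFP+ macrophages and none was lower, with a median of 0.18. Among all genes of that level 1.54% were higher and 5.77% lower. *Skil*, a repressor of SMAD signalling that TGF-β induces, had 36.8 and 69.4 CPM, a log2 ratio of 0.90 (0.57 to 1.23), and without cluster 8 the ratio was 0.91 (0.59 to 1.25). *Tgfbi*, also induced by TGF-β, had 337 and 348 CPM, a ratio of 0.05 (−0.07 to 0.16). The TGF-β target *Smad7* had 0 UMIs in YFP− and 19 UMIs in YFP+ macrophages, the latter 2.82 CPM (1.70–4.40).

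**Figure D5:**
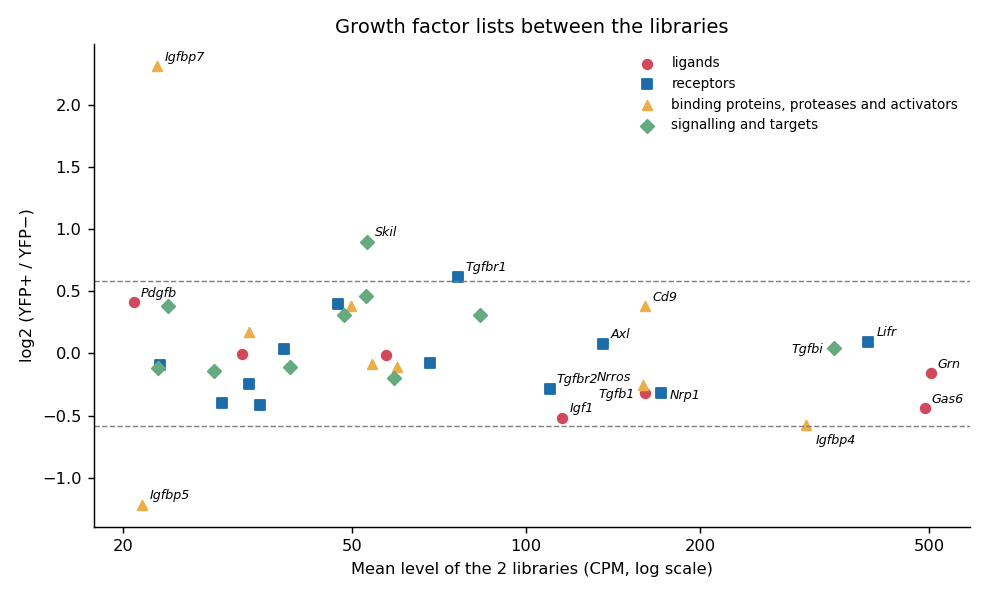
Log2 ratio of YFP+ over YFP− against the mean level (CPM, log scale) for the genes of the 4 lists with at least 20 CPM, with dashed lines at 1.5-fold. *Gas6*, *Tgfb1*, *Igf1* and *Pdgfb* lie within the lines, *Tgfbr1*, *Skil* and *Igfbp7* above and *Igfbp5* below.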

How the data were processed

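The authors deposited raw UMI counts per gene and barcode, mapped to GRCm38 with Cell Ranger (version 3.0.2 in the submitters' processing notes, with an older release in the study's methods), without a filter on cells. The annotation release is not given in the sources used here, and GENCODE M21 lists 99.9% of the deposited gene IDs. UMIs were summed over cells and scaled to CPM with pandas 2.3.3, scipy 1.17.1 and numpy 2.4.6 under Python 3.11.15. Ratios added 1 CPM and had intervals conditional on the summed counts. Genes counted as past the fold at 1.5-fold with a mean of at least 20 CPM. Clustering used scanpy 1.11.5 and igraph 0.11.9 on 2000 variable genes, 20 components, 20 neighbours, resolution 0.8 and seed 0, leaving out 111 genes (the members and the growth factor lists). Leading genes had at least 50 CPM and the highest ratio after adding 10 CPM. Doublets were kept, and 3 YFP− and 1 YFP+ cells over 10% mitochondrial UMIs were kept. The ratio and its interval were tested on simulated counts.

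The members and lists were chosen with earlier results of these data known. Genes named were the members, listed genes of at least 100 CPM or past the fold, the 3 genes most like each member (at least 50 CPM), leading genes of clusters where a member was highest, and markers. Other listed genes and the leading genes of other clusters were chosen after their values were seen. A few genes that this rule would name are not reported here.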

Additional observations from a re-analysis of the deposited data

How the results depend on the processing

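Of 242 values recomputed under alternatives, 212 kept within the counting interval or within 1.5 times the count, 27 moved further and 3 turned the direction of a value whose interval excludes 0. In all 18 changed sign, and for 15 of these the interval of the reported value includes 0. No paired analysis was possible because each fraction is 1 library. Thinning cells to 500 UMIs moved the log2 ratio of YFP+ over YFP− to −0.24 for *Igf1*, 1.06 for *Pdgfb* and −0.12 for *Pdgfc*, and taking only cells low for the immediate-early and heat-shock list moved it to −0.21 for *Igf1* and −0.36 for *Pdgfc*. Thinning drops most UMIs, and *Pdgfc* was then left in 2 YFP− and 7 YFP+ cells. With the same cluster makeup in both libraries, an alternative chosen after seeing the data, *Gas6* had −0.27. The count of genes at least 1.5-fold higher in YFP+ macrophages, 85, became 295 after thinning, 180 in the cells low for that list, 340 at a mean of 5 CPM and 29 at 50 CPM, and the 319 lower genes became 584 after thinning, 950 at 5 CPM and 152 at 50 CPM. Against barcodes of 50 to 200 UMIs, which held only 61499 UMIs in the YFP− library, the log2 ratio of cells over background was 0.48 for *Igf1*, 1.12 for *Tgfb1*, −1.41 for *Pdgfb*, 3.08 for *Pdgfc* and 0.21 for *Gas6* in YFP− macrophages, and 0.56 for *Osm* and −0.22 for *Gas6* in YFP+ macrophages. The log2 ratio of shares of cells with an *Igf1* UMI, −0.17 at 500 UMIs, was −0.69 at 1000 UMIs and −0.78 without thinning, where YFP− cells are deeper. The log2 ratio of the highest cluster over other cells was −0.067 for *Pdgfb*, 2.39 for *Pdgfc*, 5.83 for *Vegfa*, 5.65 for *Hbegf* and 0.49 for *Gas6* in YFP− cells alone. For *Vegfa* the cluster nearest to cluster 8 gave −0.63 at a resolution of 1.2 and −0.63 when clustered on thinned cells, since the UMIs then lay in a separate cluster led by *Acta2*, and 5.03 with the immediate-early list left out. The cause of the other moves was not tested. Depth limits *Vegfa*, *Hbegf*, *Osm* and *Pdgfc* most, with 1 to 32 UMIs per library.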
